A study of Mus musculus with 12 samples.

Results

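The genes described are a module of 32 that make, store, move or sense cholesterol, followed here in mouse macrophages after 1 h of house dust mite (HDM) allergen. Members were taken by gene symbol from a list drawn up by function, and all 32 were found among the 50559 genes of the count table and among the 13530 that had enough reads to be tested. The list has an LXR side of 6 genes (Nr1h2, Nr1h3, Abca1, Abcg1, Mylip and Srebf1), and its other 26 genes cover synthesis, uptake and SREBP control. Bone marrow-derived macrophages of C57BL/6 mice, grown in culture from marrow cells, were given either HDM or vehicle. There were 6 HDM libraries and 6 vehicle libraries, numbered 1 to 6 in each group, all collected at 1 h. No genetic change is named for either group, and neither the HDM dose, the nature of the vehicle nor the age of the mice is given in the sources used here. Nothing in the labels ties the libraries to separate animals or cultures. P-values therefore measure the spread between these 12 libraries, and that spread may be technical. The study concerns AKAP79/150, a scaffold protein, and this comparison asks which transcripts the allergen changes.

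Cells hold their cholesterol steady through a pair of opposed transcription systems. When sterols run low in the endoplasmic reticulum, the escort protein SCAP carries SREBP factors to the Golgi, where they are cut and freed to switch on the synthesis genes, while INSIG proteins hold SCAP back when sterols are plentiful. When oxysterols accumulate, the nuclear receptors LXRα and LXRβ switch on genes of cholesterol export and of reduced uptake, and macrophages, which take up much lipid from debris and dying cells, rely on that export.

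Library depth was 19.8 to 119.7 M counted reads with HDM (median 41.1 M) and 19.7 to 62.4 M with vehicle (median 41.7 M). The members took between 0.195% and 0.207% of the reads of a library, and the shallowest value of any member was 74 reads, for Idi1. The treatment acted: Tnf, the gene of a central inflammatory cytokine, averaged 160 ± 32.8 counts per M reads (CPM) with HDM and 12.03 ± 0.994 CPM with vehicle (SD, n = 6 each). Summed levels of 6 macrophage markers were 16331 to 20132 CPM with HDM and 16078 to 20529 CPM with vehicle, led by Lyz2. Lists of dendritic cell, neutrophil, lymphocyte, mast cell and basophil, stromal, and erythroid and megakaryocyte markers summed to at most 6.19 CPM in any library, and most of these genes had too few reads to be tested. None of the 2 neutrophil, 1 mast cell and basophil, 2 stromal, 1 erythroid and megakaryocyte and 6 macrophage markers that were tested was called by edgeR with treatment alone. Mcpt8, Hba-a1 and Hbb-bs, defining markers of basophils and red cells, were at 0 in all 12 libraries. In bulk RNA, fewer cells of a type and less RNA per cell cannot be told apart. Libraries numbered 5 and 6, of both treatments, stood apart from the other 8 on the first principal component, which held 42.2% of the variance, so values are given for these sets too. Same-numbered libraries of the treatments deviated together, with correlations of 0.367 to 0.672, so a fit with the library number as a block is given beside the fit with treatment alone wherever it changes a call. The split of libraries 5 and 6 can raise these correlations by itself, so they do not show that each number marks a pair.

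Promoter sequence is shown for 4 members, Mylip, Insig1, Lss and Hmgcs1, because they are the ones that changed with treatment in at least 1 of these fits and have a single start in the RefSeq promoter table. Each run is the 250 bases upstream of the annotated start in build GRCm38.p6, plus strand, 5′ to 3′. The windows are chr13:45389492-45389741 for Mylip, chr5:28071162-28071411 for Insig1, chr10:76531355-76531604 for Lss and chr13:119690101-119690350 for Hmgcs1. Capitals mark the CCAAT box, the site of the factor NF-Y, on either strand (ATTGG when read on the other one). They also mark the sterol regulatory element in the form TCACNCCAC, a site of SREBP. Hmgcs1 alone of the 4 holds a copy in that form.
Mylip: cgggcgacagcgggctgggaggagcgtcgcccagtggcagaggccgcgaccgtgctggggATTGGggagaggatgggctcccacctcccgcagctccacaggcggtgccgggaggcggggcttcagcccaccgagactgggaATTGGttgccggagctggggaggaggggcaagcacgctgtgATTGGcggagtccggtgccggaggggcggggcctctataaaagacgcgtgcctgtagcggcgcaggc
Insig1: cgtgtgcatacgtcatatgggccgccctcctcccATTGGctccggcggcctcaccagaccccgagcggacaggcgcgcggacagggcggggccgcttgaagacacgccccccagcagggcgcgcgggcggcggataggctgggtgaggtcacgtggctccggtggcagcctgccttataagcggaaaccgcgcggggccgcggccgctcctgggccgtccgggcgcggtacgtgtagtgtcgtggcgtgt
Lss: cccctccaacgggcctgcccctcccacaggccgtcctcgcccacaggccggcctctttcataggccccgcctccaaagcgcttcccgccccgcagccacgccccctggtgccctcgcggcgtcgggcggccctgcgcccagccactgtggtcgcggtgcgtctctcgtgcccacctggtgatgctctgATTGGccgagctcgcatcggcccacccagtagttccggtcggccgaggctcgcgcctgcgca
Hmgcs1: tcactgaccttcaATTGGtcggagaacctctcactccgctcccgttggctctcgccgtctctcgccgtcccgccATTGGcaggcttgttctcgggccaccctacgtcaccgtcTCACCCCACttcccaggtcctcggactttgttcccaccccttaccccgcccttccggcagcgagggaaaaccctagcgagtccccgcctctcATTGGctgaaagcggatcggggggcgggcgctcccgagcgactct
Mylip and Hmgcs1 each had 3 CCAAT boxes in the window, and Insig1 and Lss had 1 each. The sterol regulatory element of Hmgcs1 lay 129 to 137 bases upstream of the start, between its CCAAT boxes, and no marked match overlapped another.

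Of the 32 members, 26 had an entry in the promoter table; Scd2, Fdps, Fdft1, Sqle, Stard4 and Abcg1 had none. A CCAAT box on either strand was present upstream of 21 of the 26, made up of 2 of 5 on the LXR side and 19 of 21 among the synthesis, uptake and SREBP control genes. It was present in 40.3% of the 10370 tested genes with an entry and in 33.8% of all 32851 promoters in the table. Here and below, a gene counts if any of its starts has a match, while shares of all promoters count each start singly. By gene, the CCAAT box was present in 37.5% of all 27025 genes with an entry. The GC box GGGCGG, a site of Sp1, was present in 21 of the 26 members, in 61.5% of tested genes and in 32.7% of all promoters. The sterol regulatory element was found in 1 of the 26 members, in 1.22% of tested genes and in 1.05% of all promoters. A pair of AGGTCA sites in 1 direction spaced by 4 bases, the strict form of an LXR element, was found in 0 of the 26 members. It was found in 0 of the 10370 tested genes with an entry and in 0.0152% of all promoters, too rare to tell members from other genes. These matches describe letters in a 250-base window and are not shown binding sites.

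After 1 h of HDM, 1 of the 32 members had changed in the fit with treatment alone: Mylip, lower with HDM. No member was called higher by edgeR's quasi-likelihood test at an adjusted p under 0.05, and 5 members had an unadjusted p under that value (Mylip, Hmgcs1, Insig1, Srebf1 and Lss), as did 14% of all tested genes. Over all 13530 tested genes, 2.9% were called higher and 2.47% lower. The DESeq2 Wald test called 1 member higher, Hmgcs1, and 1 lower, where it called 3.89% of all tested genes higher and 3.17% lower. Limma-voom called 0 higher and 1 lower, where it called 3.03% of all tested genes higher and 2.73% lower. The median log2 change over the members was -0.01, with 12 above 0 and 20 below, and over all tested genes it was -0.00. With the library number as a block, 1 member was higher (Hmgcs1) and 5 were lower (Mylip, Insig1, Lss, Stard4 and Srebf1), where 7.9% of all tested genes were called higher and 6.81% lower. With a term only for libraries 5 and 6 against the rest, edgeR called Hmgcs1, Insig1, Lss and Mylip, and not Stard4 or Srebf1. With treatment alone, the 95% interval of the fold change lay within 1.2-fold in either direction for 18 of the 32, within 1.5-fold for 30 and within 2-fold for all 32, and the 2 that reached past 1.5-fold were Abcg1 and Mylip. With the block, 29 of the 32 intervals lay within 1.2-fold.

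**Figure D1:**
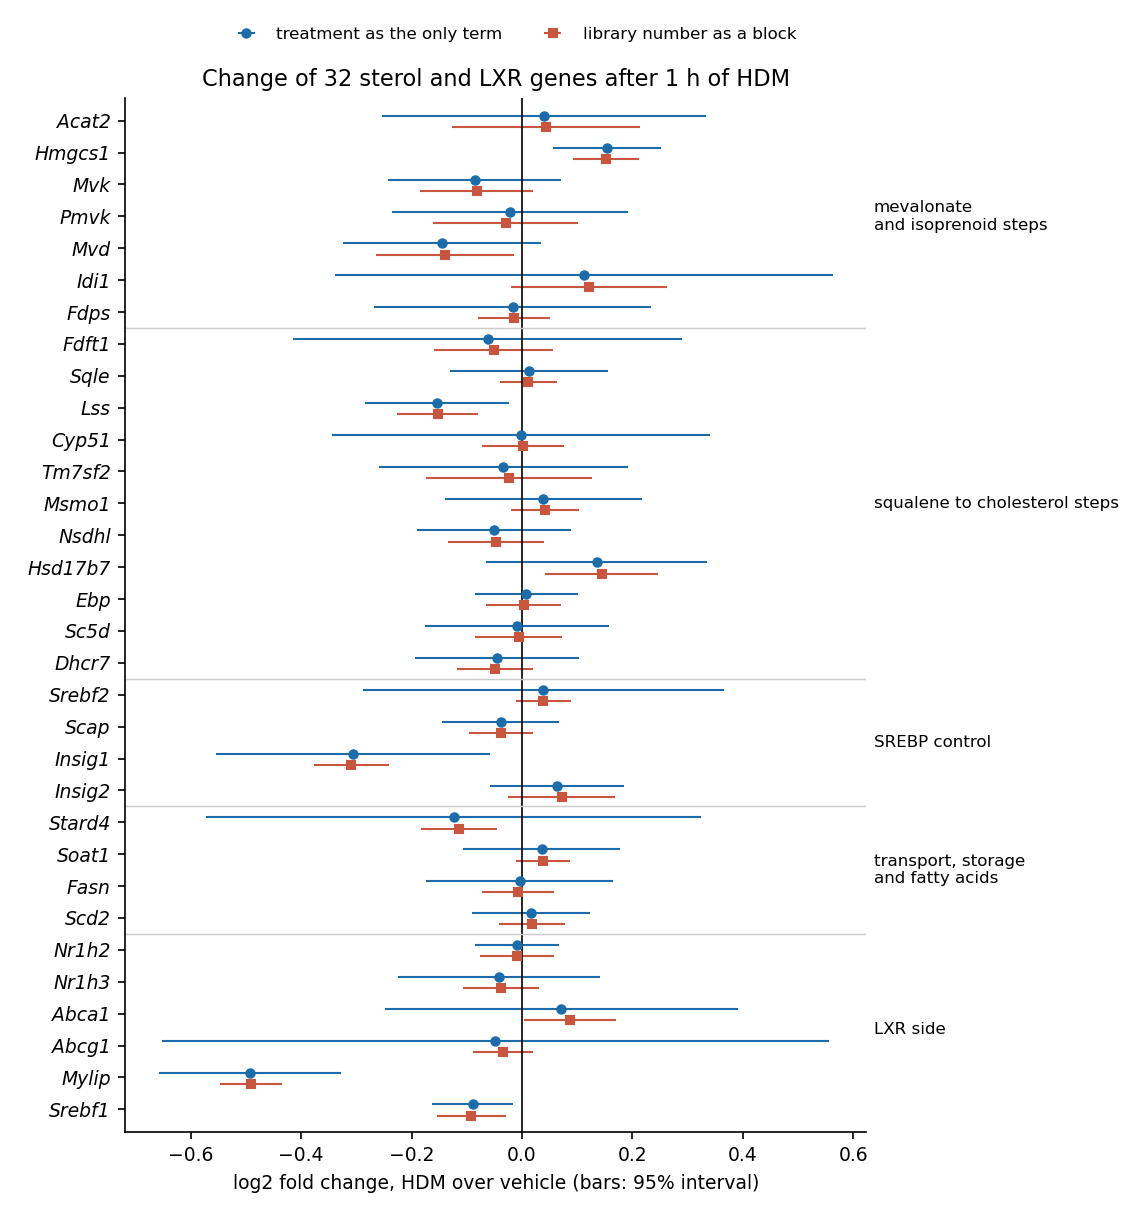
Log2 fold change of HDM over vehicle for the 32 members, ordered by role, with 95% intervals, from the fit with treatment as the only term (blue circles) and with the library number as a block (red squares). The interval of Mylip lies farthest below 0 in both fits, and the wide intervals of Abcg1, Idi1, Stard4 and Cyp51 narrow with the block.

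Mylip encodes the ubiquitin ligase IDOL, which LXR induces and which marks receptors of the low-density lipoprotein family for breakdown, so that less cholesterol is taken up. Its level was 35.0, 38.4 and 43.5 CPM (lowest, median and highest) in HDM libraries and 47.6, 54.1 and 61.6 CPM in vehicle libraries. Every HDM library lay below every vehicle library, a separation that held for 1 of the 32 members and for 2.07% of all tested genes. No member had every HDM library above every vehicle library, which was so for 2.32% of all tested genes. Mylip fell by 28.9% with HDM, to 38.9 ± 3.57 CPM in HDM libraries, against 54.8 ± 5.77 CPM in vehicle libraries (SD, n = 6 each). The log2 fold change was -0.49 ± 0.08 (SE), with a 95% interval of -0.66 to -0.33 and an adjusted p of 0.00146 by edgeR's quasi-likelihood test. Within each library number the log2 difference was between -0.54 and -0.44. That it was below 0 in all 6 follows from the full separation of the groups. The labels do not say that a number marks a pair. The fall was of like size in the libraries numbered 5 and 6 alone (-0.51, edgeR adjusted p = 5.15e-11) and in those numbered 1 to 4 alone (-0.49, edgeR adjusted p = 9.76e-05). In these fits, with 2 and 4 libraries per group, 8.47% and 7.88% of all tested genes were called in either direction. edgeR pools its estimate of spread over genes, so a p-value from 2 libraries per group rests mostly on that pooled spread. It says little about the spread of these libraries, here and for every value from libraries 5 and 6 alone. Mylip was called in all 25 alternatives that were run, with adjusted p-values between 5.15e-11 and 0.00521.

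The other LXR-side genes did not pass the test with treatment alone. Srebf1, an LXR target, encodes the SREBP-1 factors that drive fatty acid synthesis. It measured 63.8, 68.5 and 72.3 CPM (lowest, median and highest) with HDM and 70.7, 72.5 and 74.7 CPM with vehicle. The groups overlapped only at their edges, and the HDM library was the lower of its pair in 5 of 6 numbers. The log2 change was -0.09 ± 0.03 (SE), not called with treatment alone (edgeR adjusted p = 0.199) and called lower with the block (-0.09 ± 0.03, edgeR adjusted p = 0.0445). It was -0.14 within libraries 5 and 6 (edgeR adjusted p = 0.0364) and -0.06 within libraries 1 to 4 (edgeR adjusted p = 0.436). Nr1h3 and Nr1h2, the genes of LXRα and LXRβ, had log2 changes of -0.04 (95% interval -0.22 to 0.14) and -0.01 (-0.09 to 0.07). Abcg1, which encodes an exporter that loads cholesterol onto HDL particles, had a log2 change of -0.05 with the widest interval of the module, -0.65 to 0.56. With the block that interval was -0.09 to 0.02.

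Abca1 encodes the exporter that hands cholesterol and phospholipid to lipid-poor apolipoprotein A-I. Its level was 216, 289 and 333 CPM (lowest, median and highest) with HDM and 207, 251 and 355 CPM with vehicle, so the groups overlapped almost throughout. The log2 change was 0.07 (95% interval -0.25 to 0.39) with treatment alone. Same-numbered libraries split by set: the HDM library was lower than its vehicle partner in numbers 5 and 6, by a log2 of -0.09 and -0.08, and higher in numbers 1 to 4, by 0.06 to 0.24. The difference in HDM effect between numbers 5 and 6 and numbers 1 to 4 was -0.26 ± 0.05 (SE, log2). It passed with the block (edgeR adjusted p = 0.0279) and not without it (-0.26 ± 0.15, edgeR adjusted p = 0.859). Both the sets and the pairing were taken from these data, so the call holds only given both. Abca1 was the 1 member of 32 for which this difference was called with the block, as it was for 0.473% of all tested genes. Without the block, edgeR called it for 0 of 32 members and 0.0813% of all tested genes, and 2 members had an unadjusted p under 0.05, as did 5.99% of all tested genes.

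**Figure D2:**
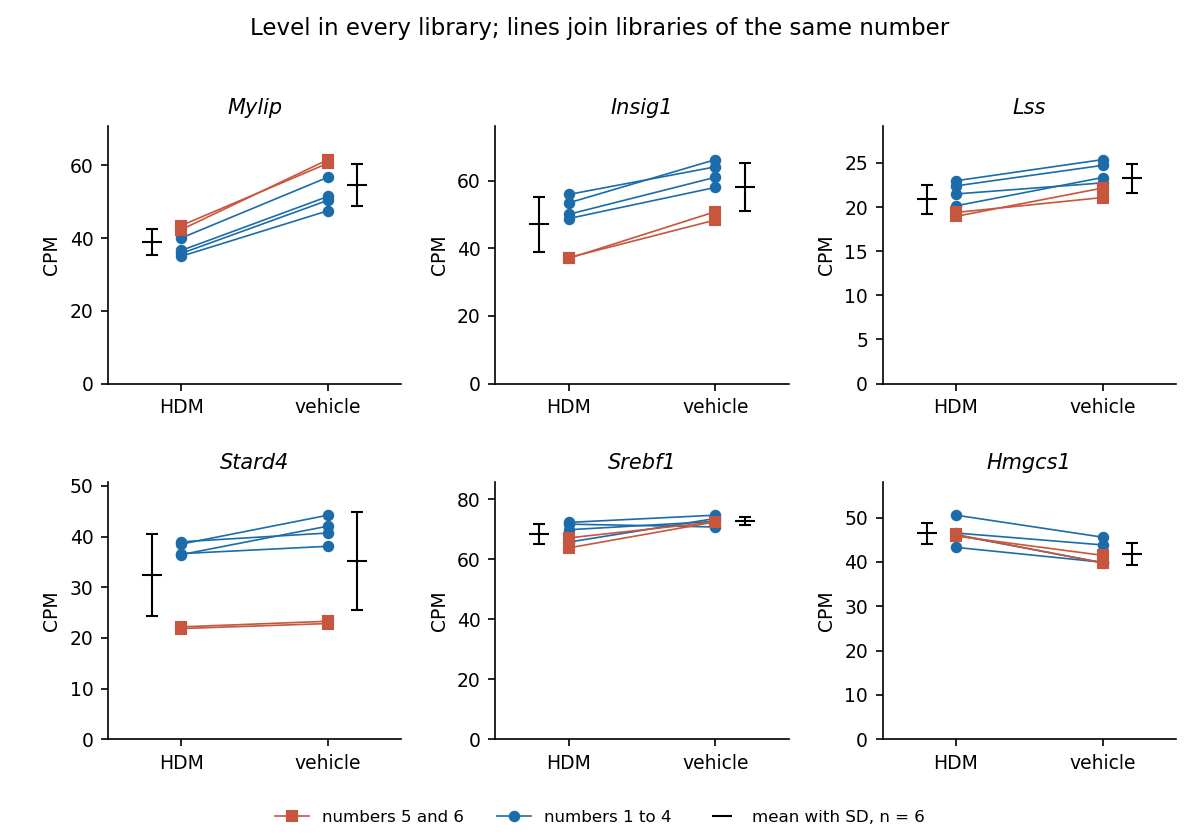
Level in CPM of the 6 members called with treatment alone or with the block, with HDM libraries on the left and vehicle libraries on the right of each panel. Lines join libraries of the same number, red squares are numbers 5 and 6, blue circles are numbers 1 to 4, and black marks are the group mean with its SD. The groups separate fully for Mylip alone. In Stard4, Insig1 and Lss the sets of numbers lie further apart (log2 ratios -0.81, -0.40 and -0.17) than the treatments (-0.12, -0.31 and -0.15).

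Among the genes of SREBP control, Insig1 had the largest difference. It encodes a membrane protein that retains SCAP in the endoplasmic reticulum, and its own gene is a target of SREBP. Insig1 measured 37.0, 49.4 and 55.9 CPM (lowest, median and highest) with HDM and 48.3, 59.5 and 66.2 CPM with vehicle. The groups overlapped, because libraries 5 and 6 were low in both, yet the HDM library was the lower of its pair in all 6 numbers. Here, for Mylip and Srebf1 above and for the genes below, such agreement restates the pairs that the block fit uses. Its share over all tested genes is not given here. Means were 47.0 ± 8.09 CPM with HDM and 58.0 ± 7.17 CPM with vehicle (SD, n = 6 each), a log2 change of -0.31 ± 0.11 (SE) that was not called with treatment alone (edgeR adjusted p = 0.196). With the block the change was -0.31 ± 0.03 and was called (edgeR adjusted p = 2.16e-06). It was called as well within libraries 5 and 6 (-0.41, edgeR adjusted p = 8.08e-08) and within libraries 1 to 4 (-0.26, edgeR adjusted p = 0.00720). Its sister gene Insig2, whose product holds SCAP back in the same way, had a log2 change of 0.06 (95% interval -0.06 to 0.18). Srebf2, the gene of the factor that mainly drives cholesterol synthesis, and Scap had log2 changes of 0.04 (-0.29 to 0.37) and -0.04 (-0.14 to 0.07).

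The mevalonate and isoprenoid steps turn acetyl-CoA into farnesyl diphosphate, and none of their 7 members was called with treatment alone. In that fit 2.9% of all tested genes were called higher and 2.47% lower. Hmgcs1 encodes the enzyme that makes HMG-CoA, and its promoter carries the sterol regulatory element shown above. It measured 43.3, 46.1 and 50.5 CPM (lowest, median and highest) with HDM and 39.8, 40.7 and 45.6 CPM with vehicle. The HDM library was the higher of its pair in all 6 numbers, though the groups overlapped. The log2 change was 0.15 ± 0.05 (SE; means 46.4 ± 2.34 CPM with HDM and 41.7 ± 2.45 CPM with vehicle, SD, n = 6 each), with an edgeR adjusted p of 0.0779 with treatment alone and 0.00111 with the block. Leaving out the vehicle library numbered 1, the highest of its group, brought the edgeR adjusted p with treatment alone to 0.0353. Leaving out any other library gave no call, and Hmgcs1 was called in 6 of the 25 alternatives. Within libraries 5 and 6 the change was 0.18 (edgeR adjusted p = 0.0218), and within libraries 1 to 4 it was 0.15 (edgeR adjusted p = 0.160). Acat2, which joins acetyl-CoA units, Mvk, Pmvk and Mvd, the kinases and the decarboxylase of mevalonate, Idi1, an isomerase, and Fdps, which makes farnesyl diphosphate, had log2 changes from -0.15 for Mvd to 0.11 for Idi1. Mvd averaged 7.76 ± 0.698 CPM with HDM and 8.60 ± 0.938 CPM with vehicle, and Fdps averaged 35.4 ± 5.07 CPM with HDM and 35.8 ± 5.68 CPM with vehicle (SD, n = 6 each). The 95% interval of all 6 of these log2 changes included 0.

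From squalene to cholesterol, edgeR called 0 of 11 members with treatment alone, where 1 had an unadjusted p under 0.05, and 1 with the block, Lss. Of all tested genes, 2.9% were called higher and 2.47% lower with treatment alone, where 14% had an unadjusted p under 0.05. The block gave 7.9% higher and 6.81% lower. Lss encodes lanosterol synthase, which closes the first sterol ring system. It measured 18.9, 20.8 and 23.0 CPM (lowest, median and highest) with HDM and 21.1, 23.0 and 25.4 CPM with vehicle, and HDM was the lower of the pair in all 6 numbers although the groups overlapped. The log2 change was -0.15 ± 0.06 (SE; edgeR adjusted p = 0.230) with treatment alone and -0.15 ± 0.03 (edgeR adjusted p = 0.00579) with the block. It was -0.18 within libraries 5 and 6 and -0.13 within libraries 1 to 4, not called in either (edgeR adjusted p = 0.117 and 0.187). Hsd17b7, a reductase of the demethylation steps, had a log2 change of 0.14 ± 0.09 with treatment alone (edgeR adjusted p = 0.666) and 0.14 ± 0.05 with the block (edgeR adjusted p = 0.0554). Within libraries 1 to 4 its change was 0.21 (edgeR adjusted p = 0.0155), and within libraries 5 and 6 it was -0.03 (edgeR adjusted p = 0.917). The other 9 members were Fdft1 and Sqle, which make and oxidise squalene, and the later enzymes Cyp51, Tm7sf2, Msmo1, Nsdhl, Ebp, Sc5d and Dhcr7. Their log2 changes lay between -0.06 for Fdft1 and 0.04 for Msmo1, and Sqle, at 67.2 ± 5.79 CPM with HDM and 66.6 ± 5.77 CPM with vehicle (SD, n = 6 each), had an interval of -0.13 to 0.16.

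Of the 4 genes of transport, storage and fatty acids, 0 were called by edgeR with treatment alone, and none had an unadjusted p under 0.05. Of all tested genes, 2.9% were called higher, 2.47% lower, and 14% had an unadjusted p under 0.05 in that fit. Stard4 encodes a carrier that moves cholesterol between membranes. It measured 21.8, 36.5 and 39.0 CPM (lowest, median and highest) with HDM and 22.8, 39.4 and 44.2 CPM with vehicle. Libraries 5 and 6 were far below the rest in both treatments, and HDM was the lower of the pair in all 6 numbers. The log2 change was -0.12 ± 0.21 (SE; edgeR adjusted p = 0.976) with treatment alone and -0.11 ± 0.03 (edgeR adjusted p = 0.0255) with the block. It was -0.07 within libraries 5 and 6 and -0.13 within libraries 1 to 4, not called in either (edgeR adjusted p = 0.650 and 0.158). Soat1, which esterifies cholesterol for storage in droplets, averaged 476 ± 36.5 CPM with HDM and 464 ± 42.8 CPM with vehicle (SD, n = 6 each). Its log2 change was 0.04 (95% interval -0.11 to 0.18), that of Fasn, fatty acid synthase, was -0.00 (-0.17 to 0.16), and that of Scd2, a fatty acid desaturase, was 0.02 (-0.09 to 0.12).

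**Figure D3:**
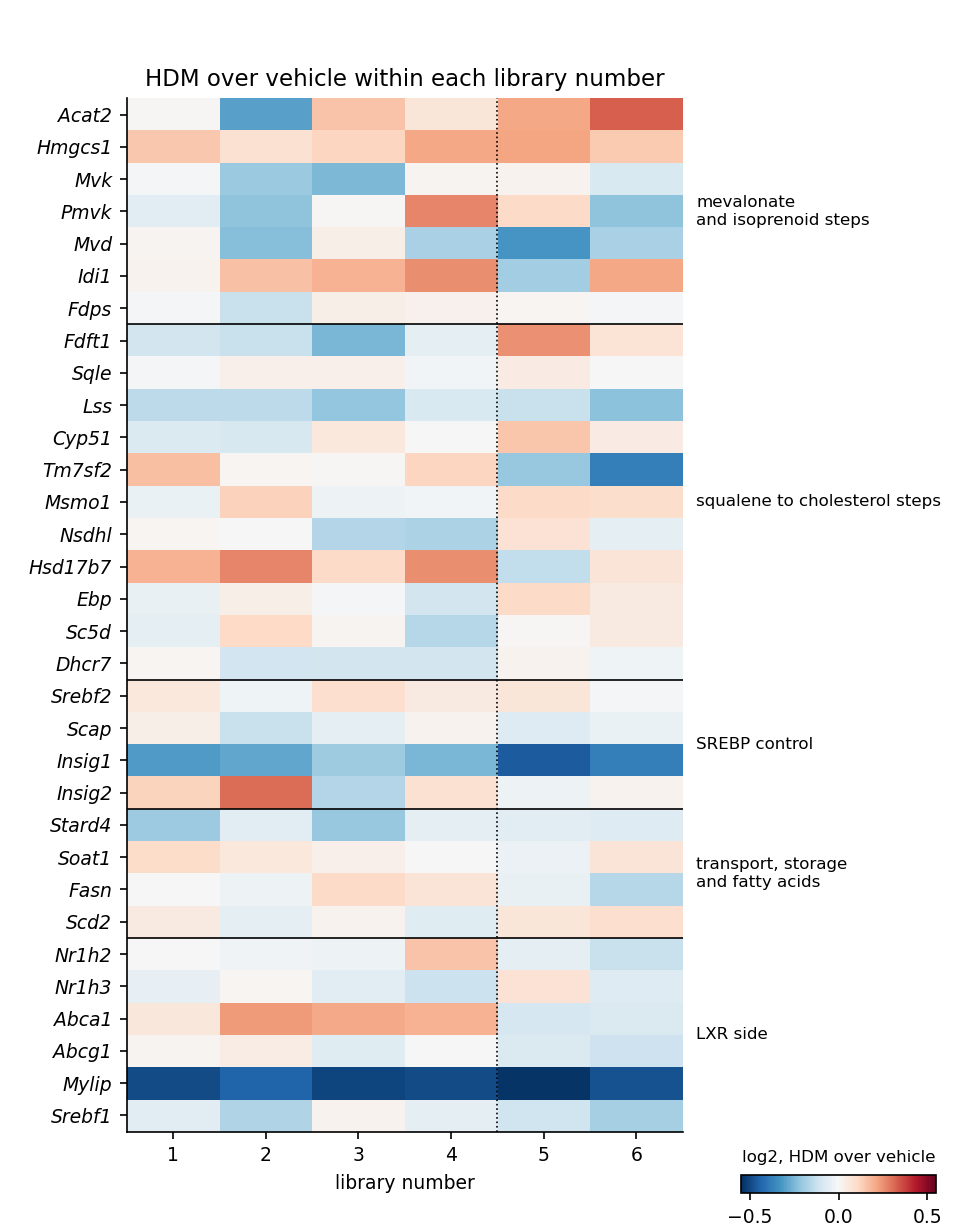
Log2 difference of CPM, HDM over vehicle, within each library number, for the 32 members by role; blue is lower with HDM and red is higher. Mylip is blue throughout (-0.54 to -0.44), Insig1, Lss and Stard4 are blue in all 6 columns and Hmgcs1 is red in all 6, while Abca1 is red in numbers 1 to 4 and blue in numbers 5 and 6. These colours show the same pairs that the block fit uses and are not separate support for its calls.

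Of the 32 members, 16 kept libraries 5 and 6 apart from libraries 1 to 4 whatever the treatment, as the plot of ratios between these sets shows. The sets were seen in the expression values, so the differences are given without a test. All 4 libraries numbered 5 and 6 lay below the other 8 for 12 of the 32 members and above them for 4, where 15.2% of all tested genes lay below and 13.7% above in the same way. The 12 were all on the synthesis, uptake and SREBP control side. They were Stard4, Idi1, Fdft1, Cyp51, Srebf2, Fdps, Acat2, Hsd17b7, Sc5d, Fasn, Msmo1 and Mvk, with mean levels in 5 and 6 between 0.571 (Stard4) and 0.860 (Mvk) times those in 1 to 4. The 4 that lay above were Abcg1, Abca1, Soat1 and Scap, at 1.98, 1.37, 1.16 and 1.12 times. The median log2 ratio of 5 and 6 over 1 to 4 was 0.14 on the LXR side, -0.24 on the synthesis side and 0.00 over all tested genes. On the LXR side, Abcg1, Abca1 and Mylip were higher on average in 5 and 6, and Nr1h3 and Srebf1 were lower (-0.14 and -0.05). Nr1h2 went either way, at -0.02 with HDM and 0.10 with vehicle. The contrast did not extend to the pathway genes outside the module, listed below. There the median was -0.09 over other LXR targets and partners and 0.09 over other SREBP targets and processing genes.

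Abcg1 showed the widest gap. Under HDM it measured 169.8 and 172 CPM in libraries 5 and 6 and 79.6 to 99.2 CPM in libraries 1 to 4, and under vehicle 182 and 184 CPM against 77.5 to 103 CPM. Srebf2 went the other way, with 98.5 and 102 CPM in libraries 5 and 6 and 147 to 155 CPM in libraries 1 to 4 under HDM, and 96.9 and 98.9 CPM against 138 to 153 CPM under vehicle. In each case the split was alike in both treatments, and neither gene was called between treatments. Hmgcs1, Sqle and Nr1h2 hardly differed between the sets, with log2 ratios of -0.04, -0.04 and 0.04. Mast cell and basophil markers summed to 2.07 to 2.26 CPM in libraries 5 and 6 and 0.145 to 0.420 CPM in libraries 1 to 4, led by Kit with Mcpt8 at 0. Neutrophil markers summed to 5.28 to 6.19 CPM in libraries 5 and 6 and 3.48 to 4.91 CPM in libraries 1 to 4, and the macrophage markers to 16078 to 16583 CPM in libraries 5 and 6 and 16787 to 20529 CPM in libraries 1 to 4. Their part in the split was not tested, and the labels do not say what a library number stands for.

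**Figure D4:**
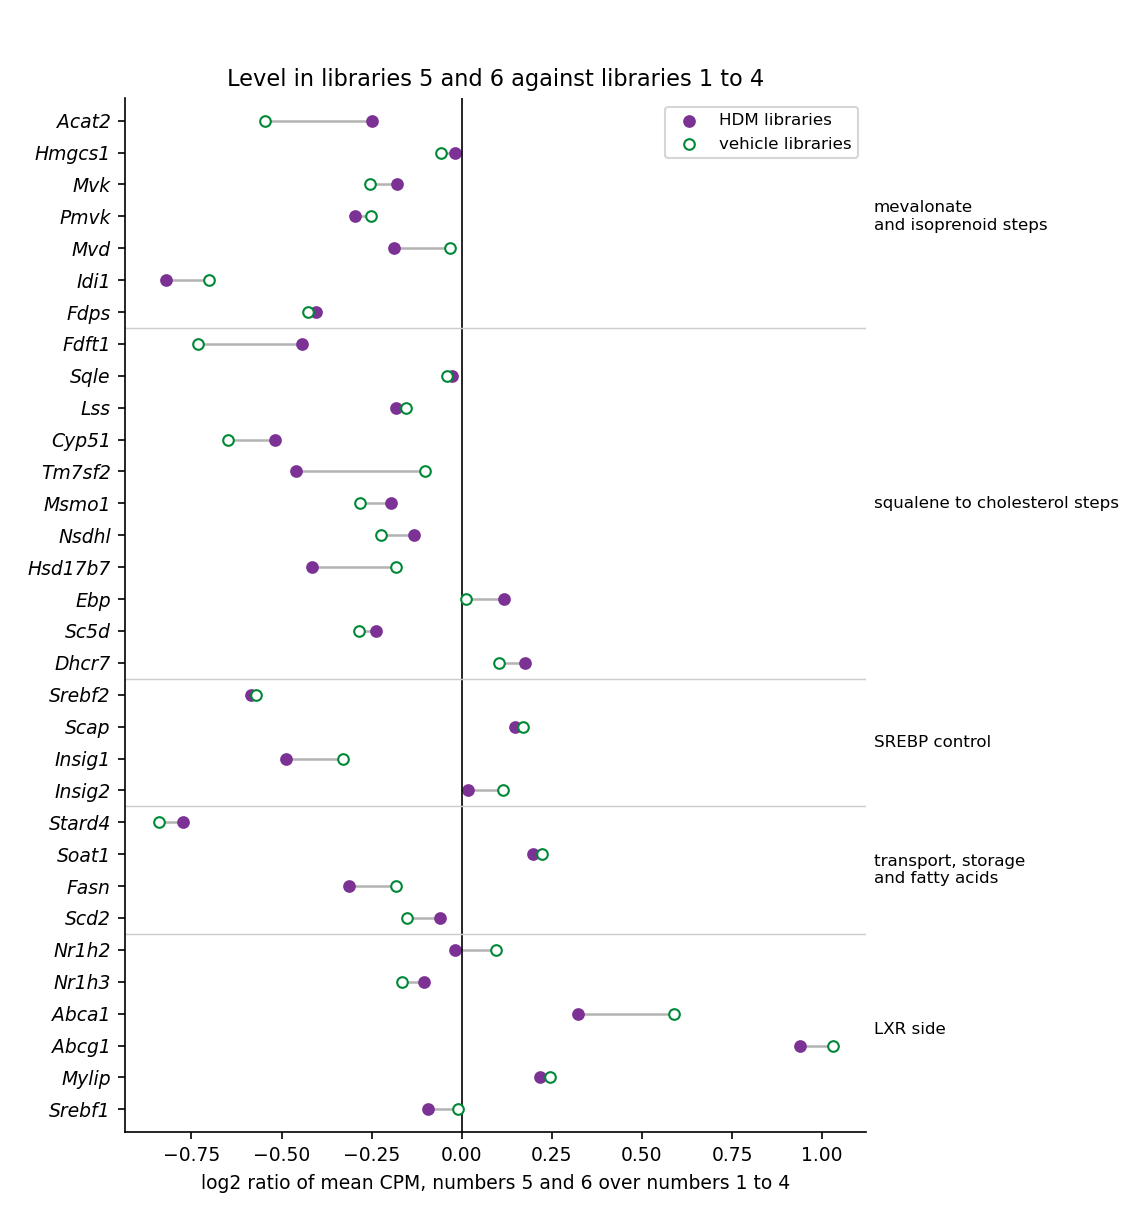
Log2 ratio of the mean CPM of libraries numbered 5 and 6 over that of libraries 1 to 4, for each of the 32 members, within HDM (filled) and within vehicle (open). Both points of a gene lie on the same side of 0 for every member but Nr1h2; Abcg1 is near 1 and Abca1 above 0 in both treatments, while Stard4, Idi1, Cyp51, Srebf2 and Fdft1 lie well below 0.

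Outside the module, 45 further genes of the same pathways were examined, chosen for function, and 43 were tested; Apoc1 had 9 reads over all libraries and Cyp7b1 had 0. With treatment alone 1 was higher and 0 were lower by edgeR, with 4 at an unadjusted p under 0.05. Of all tested genes, 2.9% were called higher, 2.47% lower, and 14% had an unadjusted p under 0.05 in that fit. The riser was Elovl6, which lengthens fatty acids and is a target of SREBP-1, at 7.47, 7.81 and 8.42 CPM (lowest, median and highest) with HDM and 6.29, 6.60 and 7.20 CPM with vehicle. The groups did not overlap, and the log2 change was 0.24 ± 0.06 (SE, edgeR adjusted p = 0.0226). The call was lost in 5 of 25 alternatives: without the HDM library numbered 5 (edgeR adjusted p = 0.0587), without vehicle 1 (0.0564), without vehicle 2 (0.0599), with no filter on low counts (0.0820) and in libraries 5 and 6 alone (0.192). Its log2 change was between 0.22 and 0.26 in all 25. By function, 0 of the 11 tested genes of cholesterol handling and oxysterols, 0 of the 11 other LXR targets and partners and 1 of the 21 other SREBP targets and processing genes were called with treatment alone.

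With the block, 6 of the 43 were higher and 2 lower, where 7.9% of all tested genes were called higher and 6.81% lower. These pathway genes are named here after their values were seen. Higher were Elovl6, Acaca, Mid1ip1, Npc1, Gramd1a and Ch25h, and lower were Fads1 and Cd5l. Ch25h, the enzyme that makes 25-hydroxycholesterol, an oxysterol that holds back SREBP processing and can activate LXR, had the largest log2 change of the list. It measured 3.69, 4.94 and 10.9 CPM (lowest, median and highest) with HDM and 1.46, 2.05 and 4.20 CPM with vehicle. Libraries 1 and 2 were the highest of each group, so the groups overlapped. The log2 change was 1.25 ± 0.35 (SE) with treatment alone, just short of a call (edgeR adjusted p = 0.0616), and 1.24 ± 0.09 with the block (edgeR adjusted p = 1.04e-08). Leaving out vehicle library 1 or 2 brought it to a call without the block (edgeR adjusted p = 0.0490 and 0.0472). Ch25h was called in 7 of the 25 alternatives. The other 5 risers with the block had log2 changes between 0.09 for Npc1 and 0.24 for Elovl6.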

How the data were processed

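RNA was measured by sequencing in 6 HDM and 6 vehicle libraries of bone marrow-derived macrophages, grouped by title. Per the labels' protocols, column-purified, DNase-treated RNA went into a stranded mRNA kit. The values deposited by the authors are raw counts per gene, unscaled, in a table of 50559 symbols. The submitters' processing notes name featureCounts 2.0.6, STAR 2.6.0c, cutadapt 4.5, Trim Galore 0.6.10 and FastQC 0.12.1, and the builds GRCm38 and mm39. How strand was set in the counting is not given in the sources used here. Whether reads of overlapping antisense genes were separated is therefore not known.

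From these counts, CPM used TMM factors. Tests were edgeR 4.0.16 quasi-likelihood F tests in R 4.3.3, two-sided, with filterByExpr, treatment as the only term and Benjamini-Hochberg adjustment over all 13530 tested genes, called under 0.05. A standard error is the absolute log2 change divided by the square root of F. Depth was 19.7 to 119.7 M reads.

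The members and lists were chosen with earlier results of these data known. Named are all 32 members, with values by library for those called with or without the block, the pathway genes called with treatment alone, and Tnf. Library values of Abca1, Abcg1, Srebf2 and Ch25h were added after their values were seen. The numbers 1 to 6 were taken to pair the samples because every same-number correlation of deviations (0.367 to 0.672) exceeded 0.1; this comes from the data, not the labels. Alternatives were 3 other scalings, 2 other filters, DESeq2 1.42.0, limma-voom 3.58.1, edgeR's robust setting, each library left out, the number sets alone or as a term, the block, and neighbouring numbers as a term, which was chosen after seeing the data. Promoters are RefSeq sequence.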

Additional observations from a re-analysis of the deposited data

Results flagged for a closer look

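Abca1 was the 1 member whose HDM effect was called different between the sets of library numbers, and only with the block. These sets were seen in the expression values, not in the labels, and the smaller one holds 2 numbers. With the replicate block, the log2 change was lower by -0.26 in libraries 5 and 6 than in libraries 1 to 4 (edgeR adjusted p = 0.0279), and without the block the same difference had an adjusted p of 0.859. In the 64 groups of 6 libraries of the 32 members, 0 had a single library set apart by Dixon's ratio, where chance would give about 1 in 20. That ratio sets a library against its nearest neighbour, so it cannot show the split of libraries 5 and 6 together from the rest.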

How the results depend on the processing

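With treatment alone, 0 members were higher and 1 was lower; with the replicate block, 1 was higher and 5 were lower. The DESeq2 Wald test gave 1 higher. Libraries 5 and 6 alone gave 1 higher and 3 lower, libraries 1 to 4 alone 1 and 2, a term for the number set 1 and 3, and neighbouring numbers as a term, chosen after seeing the data, 2 and 5. Leaving out each library in turn gave 0 to 1 higher, with 1 only when vehicle 1 was left out. Over all genes, 393 were higher and 334 lower with treatment alone. The block gave 1069 and 921, the number-set term 881 and 770, and neighbouring numbers 1164 and 1049; libraries 5 and 6 alone gave 572 and 567, and libraries 1 to 4 alone 683 and 393. The block moved the pathway genes called to 6 higher and 2 lower, and the members whose HDM effect differed between number sets to 1. It changed no other call among the members and pathway genes. The cause of these shifts was not tested. Of the 800 member values under the 25 alternatives, 80 changed sign, in 19 members, none with a log2 change over 0.14. Under the other scalings 4 members changed sign, all at 0.02 or less.

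The standard error with the block was 0.08 (log2) for Acat2, with 75 reads in its shallowest library, and 0.02 for Soat1, with 9260. At the same depth, 29 of 32 intervals lay within 1.2-fold with the block and 18 without it. Of the 12 libraries, 5 correlated best with the same number of the other treatment. If neighbouring numbers share an animal or culture, there are fewer independent samples than 6 per group and the p-values would be too small.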
